A study of Mus musculus with 8 samples.

Results

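The transcription factor p53, several genes that it is known to switch on and the main regulators of mitochondrial apoptosis were followed in hearts with and without LRPPRC, a mitochondrial RNA-binding protein that stabilises mitochondrial mRNAs. The group was given as a list of 10 gene symbols, Trp53, Cdkn1a, Mdm2, Ccng1, Bax, Bbc3, Pmaip1, Bcl2, Bcl2l1 and Mcl1, each found once among the 50599 gene records of the RNA-sequencing tables. Total RNA came from hearts of 12-week-old male C57BL/6N mice, 4 wildtype and 4 Lrpprc knockout, with 1 animal per library. In the knockout animals both Lrpprc alleles were floxed (Lrpprc loxP/loxP) and Cre removed the gene in a heart and skeletal muscle-specific manner, so RNA from untargeted cells of the heart is part of every library; the wildtype animals were Lrpprc loxP/loxP without Cre. The libraries were of total RNA, so a lower level from fewer cells of a type and a lower level from less RNA per cell cannot be told apart.

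In textbook terms, p53 is held at a low level by the ubiquitin ligase MDM2 and, once released by DNA damage or another stress, binds a pair of decamers in DNA and activates genes for cell cycle arrest (Cdkn1a), for its own restraint (Mdm2, Ccng1) and for cell death (Bax, Bbc3, Pmaip1). The BCL-2 family decides whether the outer mitochondrial membrane is opened: BAX and BAK form the pores, BCL-2, BCL-XL (from Bcl2l1) and MCL-1 hold them in check, and BH3-only proteins such as PUMA (Bbc3) and NOXA (Pmaip1) bind and block these guardians. Cardiomyocytes are long-lived, largely non-dividing cells that need MCL-1 to survive. p53 is regulated largely at the level of the protein, which was not measured here.

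Because p53 recognises DNA directly, the start-site windows of the members were searched for its decamer, the 10-base unit that occurs in pairs in a p53 response element. The windows (RefSeq, GRCm38.p6) run from 250 bases before to 50 bases after each annotated start, and 9 of the 10 members have at least 1. The decamer was found in the windows of 5 of the 9, Bax, Mdm2, Ccng1, Trp53 and Cdkn1a, against 9.55% of all 27025 genes with a window; the decamer reads the same way on both strands, so each match counts once. A pair of decamers with a spacer of at most 13 bases was found in 1 member, Cdkn1a, and in 0.074% of all genes. The 5 stretches are shown to place these decamers beside the members whose RNA is described below. Only that of Cdkn1a holds a pair, the form that p53 is known to bind, and the others hold a lone decamer. They are printed 5′ to 3′ on the strand of the gene with the decamer in capitals, and all of them end before the annotated start.
Bax (chr7:45467060-45467129, minus strand): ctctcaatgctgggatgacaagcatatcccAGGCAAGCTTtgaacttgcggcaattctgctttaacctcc
Mdm2 (chr10:117710905-117710974, minus strand): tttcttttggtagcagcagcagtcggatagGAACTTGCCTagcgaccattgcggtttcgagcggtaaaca
Ccng1 (chr11:40755432-40755501, minus strand): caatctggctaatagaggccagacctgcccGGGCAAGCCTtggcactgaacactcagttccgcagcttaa
Trp53 (chr11:69580254-69580323, plus strand): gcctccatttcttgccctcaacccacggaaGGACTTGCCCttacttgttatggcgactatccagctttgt
Cdkn1a (chr17:29090876-29090967, plus strand): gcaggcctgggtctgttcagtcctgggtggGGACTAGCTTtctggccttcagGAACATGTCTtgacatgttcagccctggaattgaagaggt

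The decamer began 201 bases before the annotated start in Bax, 186 in Mdm2, 185 in Ccng1 and 75 in Trp53. In Cdkn1a the decamers of the pair began 73 and 51 bases before the first of its annotated starts, and the pair begins 2863 bases before the second. No mismatch was allowed in the search. The 10 bases directly after the second decamer of Cdkn1a differ from the pattern only in their first letter. They were not counted and are printed in lower case. Of the 5 genes, Bax and Cdkn1a rose in the knockout, Ccng1 fell, and Trp53 and Mdm2 did not pass the test, so the presence of the letters did not sort the members by direction. Among the members that rose, Bbc3, Bcl2, Bcl2l1 and Mcl1 have windows without the decamer. The motif TGATGNAA, which ATF4 with a C/EBP partner is known to bind, was searched on both strands as well and was in 0 of the 9 members, against 4.51% of all genes. A match is a description of the letters, not evidence of binding, and elements outside these windows were not searched.

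Library depth was 35218541 to 47743376 estimated counts. Mitochondrial rRNA took 44.0 to 46.9% of them in wildtype and 65.6 to 67.8% in knockout hearts, so values below were normalised with DESeq2 size factors, which compare the typical gene between libraries and are little moved by a few abundant RNAs. Lrpprc fell from 3665 ± 216 to 577 ± 48.6 normalised counts (mean ± SD, n = 4), 6.35-fold (adjusted p = 3.77e-153, DESeq2). Knockout replicate 3 stood apart: it had the lowest summed level of the 4 atrial markers (1268, against 3233 to 6012 in the other knockout libraries and 9980 to 12040 in wildtype) and of the 5 cycling-cell markers (64.33, against 880.6 to 1477 and 175.7 to 499.5). It also had the lowest sum of the 3 smooth muscle markers (975.5, against 1896 to 2541 and 3216 to 4033) and the highest sum of the 4 erythroid markers (41070, against 10920 to 33320 and 15260 to 19690). The 5 cardiomyocyte markers were present throughout, and their summed level was 832500 to 931700 in wildtype and 395900 to 516500 in knockout hearts, with 4 of the 5 lower. Of 6 macrophage markers 5 were higher (sums of 2287 to 2924 and 2600 to 6148), and of 5 fibroblast markers 1 was. Of the 3 smooth muscle markers 1 was lower, of the 4 atrial markers 2 were, and 0 of the endothelial, lymphocyte, erythroid and adipose markers were called. The part of these cell types in the results below was not tested.

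Of the 10 members, 7 were higher in the knockout, 1 was lower and 2 did not pass the test (DESeq2, adjusted p under 0.05 over all genes). The background is wide: 33.7% of the 19959 genes tested were called in this comparison, 18.2% higher and 15.5% lower. In edgeR, 6 of the 9 members tested were called (5 higher and 1 lower), against 39.7% of its genes. In 6 members every knockout library lay above every wildtype library and in 1 every knockout library lay below, where 33.0% of all genes tested had groups that did not overlap, 16.7% above and 16.4% below. The median log2 fold change of the 10 members was 0.88, and that of all genes tested was 0.01.

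**Figure D1:**
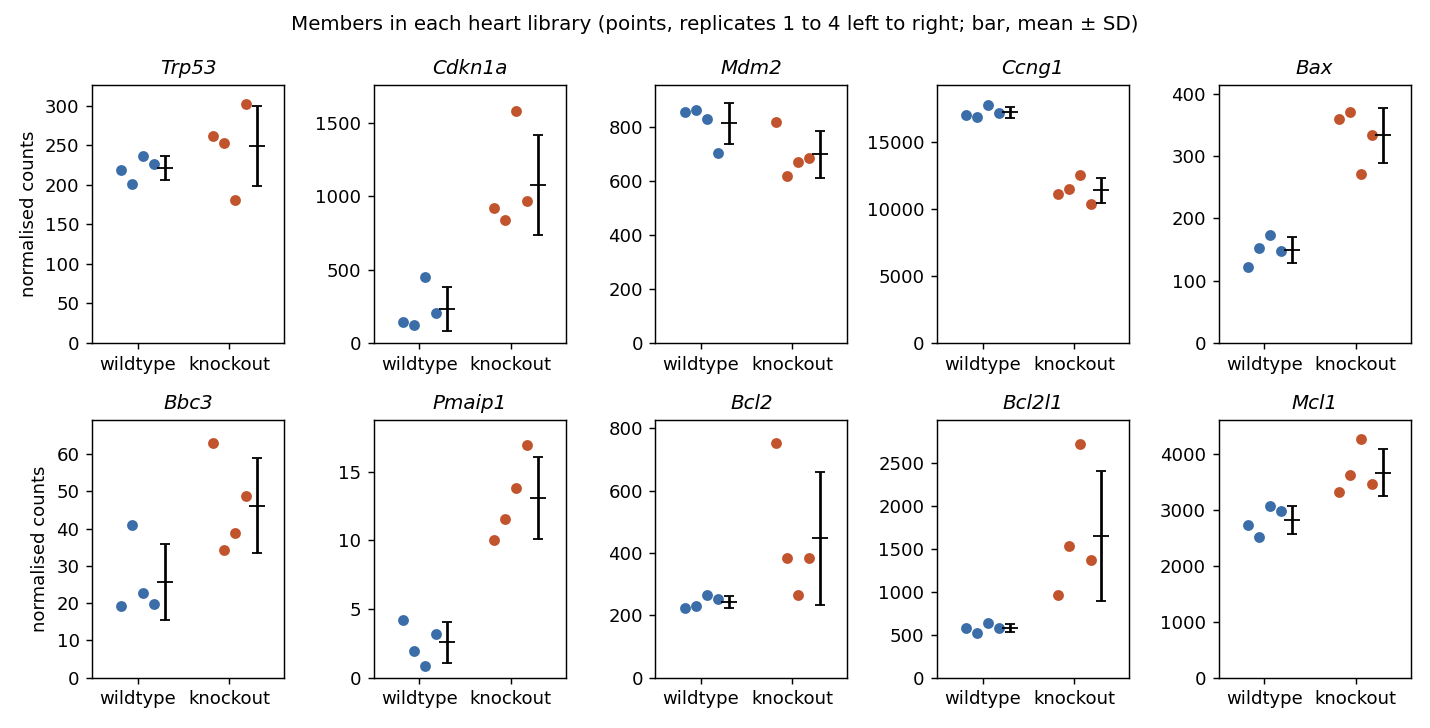
Normalised counts of each of the 10 members (vertical axes, each from 0) in the 4 wildtype and 4 knockout heart libraries; points are libraries and the bar beside them is the mean ± SD. Cdkn1a, Bax, Pmaip1, Bcl2l1 and Mcl1 were separated by genotype, Bcl2 only just (265.3 against 264.7 at the nearest pair), Ccng1 lay lower in every knockout library, and Trp53, Mdm2 and Bbc3 overlapped.

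Trp53 (chr11:69580359-69591873, plus strand), which encodes p53 itself, stood at 219.1, 201.7, 237.0 and 226.8 normalised counts in wildtype replicates 1 to 4 and at 262.0, 252.5, 181.0 and 302.0 in knockout replicates 1 to 4. Knockout replicate 3 was the lowest of all 8 libraries and the other 3 knockout libraries were the highest, so the groups overlapped. The log2 fold change was 0.17 ± 0.174 (standard error) with an adjusted p of 0.481 (DESeq2), was 0.30 with an adjusted p of 0.0873 without knockout replicate 3. It turned to -0.11 (adjusted p = 0.711) when the libraries were scaled to total counts and was called higher, at 0.61 (adjusted p = 0.00525), when they were scaled to total counts without mitochondrial rRNA. A processed pseudogene that matches Trp53 over 353 bases with 97.734% identity had 0 counts in every library, so no reads were assigned to it.

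Mdm2 (chr10:117688875-117710758, minus strand), the ligase that marks p53 for destruction and is itself a p53 target, had 858.2, 865.4, 830.9 and 704.6 normalised counts in the wildtype libraries. In the knockout it had 821.7, 619.6, 671.5 and 686.6, and the groups overlapped at knockout replicate 1 and wildtype replicate 4. The log2 fold change was -0.22 ± 0.128 with an adjusted p of 0.187. It was called lower, at -0.52 (adjusted p = 0.000518), with scaling to total counts and was 0.21 (adjusted p = 0.191) with total counts without mitochondrial rRNA. Without knockout replicate 1 it was -0.30 with an adjusted p of 0.0391. The counting tool assigned Mdm2 an effective length of 1781 to 2172 bases in wildtype and 2077 to 2288 bases in knockout hearts, ranges that overlapped, and without the length correction the log2 fold change was -0.03.

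Cyclin G1 (Ccng1, chr11:40748552-40755311, minus strand), a p53 target that recruits a phosphatase to MDM2, was the most abundant member per kilobase and the member that fell. It had 17060, 16880, 17820 and 17170 normalised counts in wildtype and 11130, 11490, 12580 and 10390 in knockout hearts. The 2 groups were tight and far apart, with means of 17230 ± 408 and 11400 ± 914 (SD, n = 4), a 1.51-fold fall (log2 fold change -0.60 ± 0.084, adjusted p = 2.59e-11). It kept a negative sign under every scaling tried, from -0.90 with total counts to -0.18 with total counts without mitochondrial rRNA.

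Cdkn1a (chr17:29090976-29100727, plus strand), which encodes the cyclin-dependent kinase inhibitor p21 and is the best known target of p53, rose 4.70-fold. Its wildtype libraries had 141.4, 124.6, 448.5 and 202.4 normalised counts and its knockout libraries 922.7, 836.5, 1585 and 968.2. The lowest knockout library was well above the highest wildtype library, but the spread within groups was wide, since wildtype replicate 3 and knockout replicate 3 were each well above the rest of their group. The log2 fold change was 2.23 ± 0.472 (adjusted p = 1.94e-05), 2.78 without wildtype replicate 3 and 1.99 without knockout replicate 3 (adjusted p = 0.000436).

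The 5 genes whose pattern over the 8 libraries was most like that of Cdkn1a, among 10446 genes compared by Pearson's r of log2(normalised count + 1), were Exoc2 (r = 0.988), Ddx28 (0.988), Necap1 (0.987), Scyl2 (0.986) and Msmo1 (0.986). They encode an exocyst subunit, an RNA helicase, an endocytic adaptor, a pseudokinase and an enzyme of cholesterol synthesis. Like Cdkn1a, these 5 had their highest wildtype value in replicate 3 and their highest knockout value in replicate 3, but their changes between genotypes were smaller, with log2 fold changes of 0.47 to 0.82. The 8 points share their libraries and 2 genotypes, so r is given as a description.

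Bax, a p53 target and the gene of the pore former, rose with little spread in either group. Bax (chr7:45461697-45466898, minus strand) had 121.8, 152.7, 173.1 and 147.4 normalised counts in wildtype and 359.7, 370.1, 270.7 and 333.3 in knockout hearts. The lowest knockout library, replicate 3, was above the highest wildtype library, and the means of 148.7 ± 21.1 and 333.4 ± 44.6 (SD, n = 4) differed 2.24-fold (log2 fold change 1.16 ± 0.165, adjusted p = 3.66e-11). Knockout replicate 3 was thus the highest library for Cdkn1a and the lowest knockout library for Bax.

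Bbc3 (chr7:16308393-16318205, plus strand), which encodes PUMA, was scarce. It had 19.16, 40.94, 22.80 and 19.75 normalised counts in wildtype and 62.98, 34.20, 38.87 and 48.71 in knockout hearts, and the groups overlapped because wildtype replicate 2 was above knockout replicates 2 and 3. The log2 fold change of 0.87 ± 0.354 passed the test narrowly (adjusted p = 0.0424, DESeq2). It did not pass in edgeR (adjusted p = 0.0571), with total counts (0.57, adjusted p = 0.21) or in 5 of the 8 fits that left out 1 library. It passed more clearly without the length correction (1.0, adjusted p = 0.00305) and with total counts without mitochondrial rRNA (1.3, adjusted p = 0.000915). The effective length assigned to Bbc3 was 939.4 to 1646 bases in wildtype and 1187 to 1551 bases in knockout hearts.

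Pmaip1, which encodes NOXA, was near the limit of detection in wildtype hearts. Its raw counts were 4, 2, 1 and 4 in the wildtype libraries and 9, 10, 12 and 18 in the knockout libraries. Every knockout library was above every wildtype library, and summed over libraries 49 counts stood against 11, a depth-corrected ratio of 5.28 with an exact 95% interval of 2.71 to 11.3 that covers counting error only. The log2 fold change was 2.38 ± 0.675 (adjusted p = 0.00216), while edgeR and the fit limited to genes with at least 10 counts in 4 libraries did not test the gene. Its level per kilobase, 5.28 ± 1.21 normalised counts in the knockout, was the lowest of the 10 members.

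The guardians also rose. Bcl2l1 (chr2:152780668-152831728, minus strand), the gene of BCL-XL, had 573.1, 522.2, 632.3 and 575.7 normalised counts in wildtype and 959.9, 1526, 2720 and 1373 in knockout hearts. The wildtype libraries were tight and the knockout libraries spanned from 959.9 to 2720 with replicate 3 again the highest, and the log2 fold change of 1.51 ± 0.261 (adjusted p = 8.98e-08) was 1.16 without that library (adjusted p = 1.5e-12). The sum of the 4 erythroid markers was 10920, 33320, 41070 and 15950 in knockout replicates 1 to 4, the same order of the 4 libraries as that of Bcl2l1, and its part in the result was not tested. BCL-XL and a shorter form with the opposite effect on cell death come from alternative splicing of this gene, and the gene-level counts do not separate them.

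Bcl2 (chr1:106538178-106714274, minus strand), the founding member of the family, had 222.9, 231.4, 264.7 and 251.9 normalised counts in wildtype and 754.6, 383.6, 265.3 and 384.1 in knockout hearts. Knockout replicate 1 was far above the other 3, and knockout replicate 3 was level with the highest wildtype library. The log2 fold change was 0.88 ± 0.275 (adjusted p = 0.00598), was 0.51 without knockout replicate 1 (adjusted p = 0.0147), and was 0.58 with an adjusted p of 0.0832 when scaled to total counts. The effective length assigned to Bcl2 was 5255 to 5495 bases in wildtype and 5834 to 6096 bases in knockout hearts, ranges that did not overlap, and without the length correction the log2 fold change was 1.05.

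Mcl1 (chr3:95658788-95663176, plus strand) was the most abundant guardian and changed the least of the members that rose. It had 2726, 2512, 3075 and 2978 normalised counts in wildtype and 3320, 3621, 4266 and 3458 in knockout hearts. The groups did not overlap but lay close, with means of 2823 ± 254 and 3666 ± 418 (SD, n = 4), a 1.30-fold difference (log2 fold change 0.38 ± 0.116, adjusted p = 0.00527). It was 0.08 with an adjusted p of 0.597 when scaled to total counts. Over the knockout libraries Mcl1 had the same order as the erythroid marker sums and Bcl2l1, and the markers' part was not tested.

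The scale of the values matters most for the members with small changes. Scaling to total counts moved the median gene by -0.296 on the log2 scale, and scaling to total counts without the mitochondrial rRNAs moved it by 0.425. Relative to the median gene the members kept their values under both: Mcl1 stood 0.37 above it, Trp53 0.18 above, Bcl2 0.87 or 0.88 above, and Ccng1 lay at -0.61. Cdkn1a, Bax, Pmaip1 and Bcl2l1 were called higher and Ccng1 lower under all 3 scalings, as the plot of the scalings shows.

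**Figure D2:**
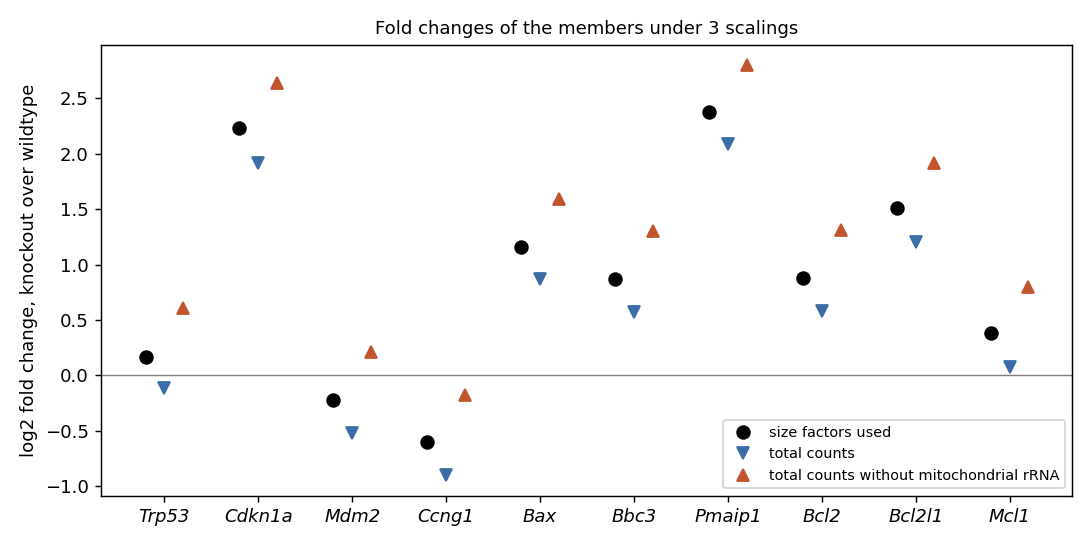
Log2 fold change of each member, knockout over wildtype (vertical axis), with the DESeq2 size factors used (circles), scaling to total counts (downward triangles) and scaling to total counts without mitochondrial rRNA (upward triangles). The 3 symbols of a gene keep their spacing, and those of Trp53 (-0.11 to 0.61) and Mdm2 (-0.52 to 0.21) lie on both sides of 0.

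Divided by transcript length, the members spanned more than 3 orders of magnitude in wildtype hearts. In normalised counts per kilobase (mean ± SD, n = 4), Ccng1 led with 5150 ± 122, followed by Mcl1 at 878 ± 78.9, Mdm2 at 394 ± 36.3, Bcl2l1 at 282 ± 22.0, Bax at 201 ± 28.5, Cdkn1a at 136 ± 88.9, Trp53 at 128 ± 8.6, Bcl2 at 42.8 ± 3.35, Bbc3 at 20.7 ± 8.30 and Pmaip1 at 1.03 ± 0.593. Among neighbours in this order, Bax and Cdkn1a overlapped between libraries, as did Cdkn1a and Trp53.
In knockout hearts Ccng1 still led with 3410 ± 273, ahead of Mcl1 at 1140 ± 130, and Bcl2l1 at 806 ± 370 and Cdkn1a at 639 ± 203 were followed by Bax at 450 ± 60.1 and Mdm2 at 339 ± 41.7. Trp53 at 144 ± 29.1, Bcl2 at 78.8 ± 37.5, Bbc3 at 37.2 ± 10.2 and Pmaip1 followed. All neighbours in this order overlapped between libraries except Ccng1 with Mcl1, Mdm2 with Trp53, and Bbc3 with Pmaip1.

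The level of the pore former was set against that of its guardians within each library, per kilobase and with no test. Bax stood to Bcl2 at 4.18, 5.05, 5.0 and 4.48 in the wildtype libraries and at 3.65, 7.38, 7.81 and 6.64 in the knockout libraries. Knockout replicate 1 was the lowest of all 8 and the other 3 knockout libraries were the highest, and the mean log2 ratio was 0.39 higher in the knockout (0.27 to 0.64 with any 1 library left out). Bax stood to Bcl2l1 at 0.585, 0.805, 0.753 and 0.705 in wildtype and at 1.03, 0.667, 0.274 and 0.668 in knockout hearts. The knockout libraries lay on both sides of the wildtype ones, the mean log2 ratio was 0.25 lower, and without knockout replicate 3 it was 0.13 higher.

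**Figure D3:**
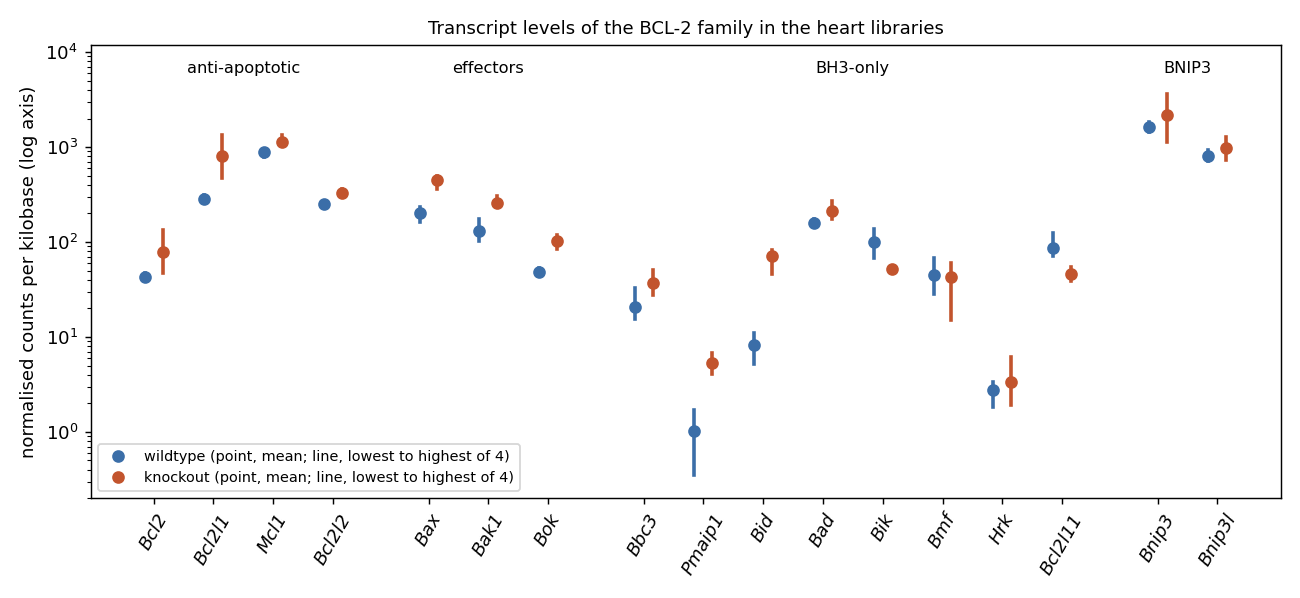
Level of the BCL-2 family genes in normalised counts per kilobase (log axis), grouped as anti-apoptotic, effector, BH3-only and BNIP3 genes; points are means of 4 wildtype or 4 knockout libraries and lines run from the lowest to the highest library. Mcl1 was the most abundant anti-apoptotic gene in both genotypes (878 and 1140), and Pmaip1 the least abundant gene shown in wildtype (1.03).

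Both other pore-forming genes rose: Bak1, the partner of Bax, from 239.6 ± 56.1 to 468.3 ± 58.7 normalised counts (1.95-fold, adjusted p = 1.34e-06) and Bok from 59.33 ± 5.06 to 126.5 ± 18.2 (2.13-fold, adjusted p = 3.25e-07), with no overlap between groups in either gene. Of the 3 other anti-apoptotic genes tested 2 rose, Bcl2l2, the gene of BCL-W, by 1.31-fold (adjusted p = 0.000555, and 0.552 with total counts) and Bcl2a1b, a scarce gene with near-identical copies that reads may be split among. Bcl2a1b was below the abundance needed to be named and was added after its values were seen. These lists of 2 and 3 genes are short, and 18.2% of all genes tested were called higher.

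Among 8 other BH3-only and BNIP3 genes, 1 rose and 2 fell, a share close to that of all genes. Bid, which links death receptors to the mitochondrial route when it is cleaved, had 9.937, 13.61, 20.87 and 17.34 normalised counts in wildtype and 143.6, 87.79, 156.0 and 149.5 in knockout hearts. The knockout libraries were all several times the highest wildtype library, an 8.69-fold rise (log2 fold change 3.12 ± 0.308, adjusted p = 2.55e-22). Bik fell 1.94-fold (adjusted p = 0.00232, and 0.103 with total counts without mitochondrial rRNA), and Bcl2l11, the gene of the potent killer BIM, fell 1.89-fold from 262.1 ± 74.8 to 138.5 ± 19.7 (adjusted p = 0.000182). The other 5, which include Bad, Bmf, Hrk and the mitophagy receptors Bnip3 and Bnip3l, did not pass the test, with log2 fold changes from -0.10 for Bmf to 0.43 for Bnip3, whose knockout libraries had the order of the erythroid marker sums.

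The p53 regulators, that is the kinases, ligases and relatives that act on or beside p53, were called higher about as often as all genes. Of 13 tested 2 rose and 0 fell, where 18.2% of all genes were higher and 15.5% lower, and their median log2 fold change was 0.07. The 2 were Trp63, the p53 relative p63, which was scarce (13.70 ± 5.87 and 45.44 ± 13.9 normalised counts, 3.32-fold, adjusted p = 0.000233), and Rchy1, the gene of the p53 ligase PIRH2 (1.42-fold, adjusted p = 0.00123, and 0.168 with total counts). Trp73, the other relative of p53, had 0 counts in every library. Log2 fold changes were 0.02 for Mdm4, 0.07 for Atm and 0.30 for Atr, none of them called.

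Of 32 other genes listed as p53 targets, 16 rose, 1 fell and 15 did not pass the test, where 18.2% of all genes tested were higher and 15.5% lower. Their median log2 fold change was 0.67, against 0.01 over all genes. Sesn2, a sestrin that restrains mTORC1, rose from 45.75 ± 11.9 to 546.1 ± 150 normalised counts (11.9-fold, adjusted p = 2.7e-46). Gadd45a, a growth arrest and DNA damage gene, rose from 97.59 ± 13.2 to 484.2 ± 150 (4.96-fold, adjusted p = 1.93e-21), and Phlda3, an inhibitor of AKT, from 109.1 ± 12.0 to 366.9 ± 19.2 (3.36-fold, adjusted p = 3.76e-34). Sesn2 and Gadd45a are also known to be induced by ATF4. All 3 were separated by genotype. The other 13 that rose had log2 fold changes of 0.59 to 1.76. The target that fell was Ak1, the muscle adenylate kinase, from 8397 ± 198 to 5210 ± 442 (1.61-fold, adjusted p = 7.73e-14).

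Among the members and among the other targets alike, genes differed in which knockout library was highest. In knockout replicate 3, Perp and Trp53inp1, chosen after their values were seen, were at their highest, with 6459 normalised counts of Perp (2708 to 3648 in the other knockout libraries) and 1736 of Trp53inp1 (447.0 to 896.9), as were Cdkn1a, Bcl2l1 and Sesn2 (764.4). Perp and Trp53inp1 followed the order of the erythroid marker sums over the 4 knockout libraries, as Bcl2l1 did. Mcl1 was also at its highest in knockout replicate 3. In knockout replicate 1 Gadd45a (660.6), Bcl2 and Bbc3 were at their highest. Bax was highest in knockout replicate 2, and Trp53 and Pmaip1 in knockout replicate 4. Of the knockout libraries, Ccng1 was highest in replicate 3 and Mdm2 in replicate 1. Without knockout replicate 3, 19 of the 32 targets were called in either direction, and 7 of the members were called higher and 1 lower. The part of the atrial, cycling-cell, smooth muscle and erythroid markers, whose sums set knockout replicate 3 apart, was not tested.

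**Figure D4:**
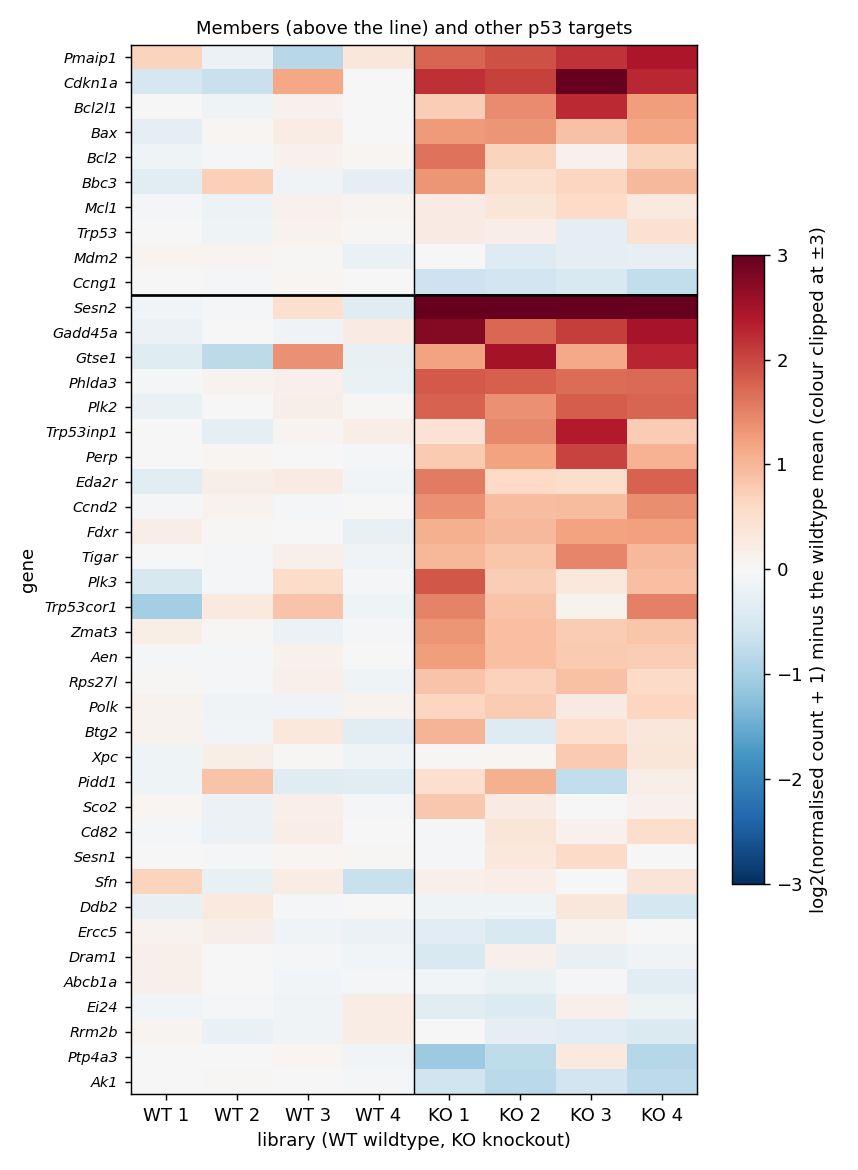
Heat map of log2(normalised count + 1) minus the wildtype mean (colour, clipped at ±3) for the 10 members above the line and 32 other p53 targets below it; columns are the 4 wildtype and 4 knockout libraries, and genes are ordered by log2 fold change within each block. Sesn2 (3.58) and Gadd45a (2.31) lead the lower block, 16 targets rose and 1, Ak1 (-0.69), fell.

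Of 18 caspases, apoptosome parts and their inhibitors or mitochondrial cofactors, 3 rose and 3 fell, a share near the 33.7% of all genes called, with a median log2 fold change of -0.06. Htra2, a mitochondrial protease, rose from 208.5 ± 24.1 to 405.7 ± 66.3 normalised counts (1.95-fold, adjusted p = 7.85e-08), and Apaf1, the scaffold of the apoptosome, rose 1.46-fold (adjusted p = 0.00615, and 0.283 with total counts). Endog, a mitochondrial nuclease, fell 1.62-fold (adjusted p = 9.56e-06, and 0.111 with total counts without mitochondrial rRNA), and Parp1 (adjusted p = 0.00534) and Aifm1 (adjusted p = 0.0492, lost in 7 of the 8 fits without 1 library) fell by 0.42 and 0.24 on the log2 scale, signs that turned to 0.01 and 0.18 under total counts without mitochondrial rRNA. Cycs, the gene of cytochrome c, had a log2 fold change of -0.28 and was not called.

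Of 14 death receptor and necroptosis genes 3 rose and 2 fell, again near the 33.7% of all genes, with a median log2 fold change of 0.05. Tnfrsf12a, the receptor of TWEAK, had 398.6, 456.0, 613.2 and 493.3 normalised counts in wildtype and 2455, 1454, 1692 and 1577 in knockout hearts, a 3.66-fold rise (adjusted p = 3.29e-20). The receptor of tumour necrosis factor, Tnfrsf1a, rose 1.58-fold (adjusted p = 6.77e-06) and its adaptor Tradd 1.62-fold (adjusted p = 0.0188). With total counts neither was called (adjusted p = 0.0541 and 0.21), and Tradd was also not called in 4 of the 8 fits without 1 library or in the fit with the replicate number as a block (adjusted p = 0.0842). Tnfrsf21 fell 1.52-fold (adjusted p = 0.000367, and 0.339 with total counts without mitochondrial rRNA), and Cflar, which encodes the caspase-8 inhibitor FLIP, fell by 0.35 on the log2 scale with a sign that turned to 0.08 under total counts without mitochondrial rRNA. Fas, a p53 target in other settings, had a log2 fold change of -0.04 and was not called.

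Among 6 other inhibitors of cyclin-dependent kinases or cell cycle genes of that name, 1 rose and 1 fell, also close to the share of all genes. Cdkn1c, the gene of p57, fell 1.54-fold with overlap between groups (adjusted p = 0.0273), and was not called in 5 of the 8 fits without 1 library or with total counts without mitochondrial rRNA (adjusted p = 0.495). The gene that rose, Cdkn3, was scarce and was added after its values were seen. It encodes a phosphatase that is known as a proliferation gene. Of the 5 cycling-cell markers 2 were higher. In knockout replicate 3 their sum was 64.33, below every wildtype library (175.7 to 499.5). Cdkn3 stood there at 9.208 normalised counts, above every wildtype library (0.9672 to 3.464). In the other knockout libraries both were above every wildtype library. The part of cycling cells was not tested. Cdkn1b, the gene of p27, had a log2 fold change of -0.21 and was not called.

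**Figure D5:**
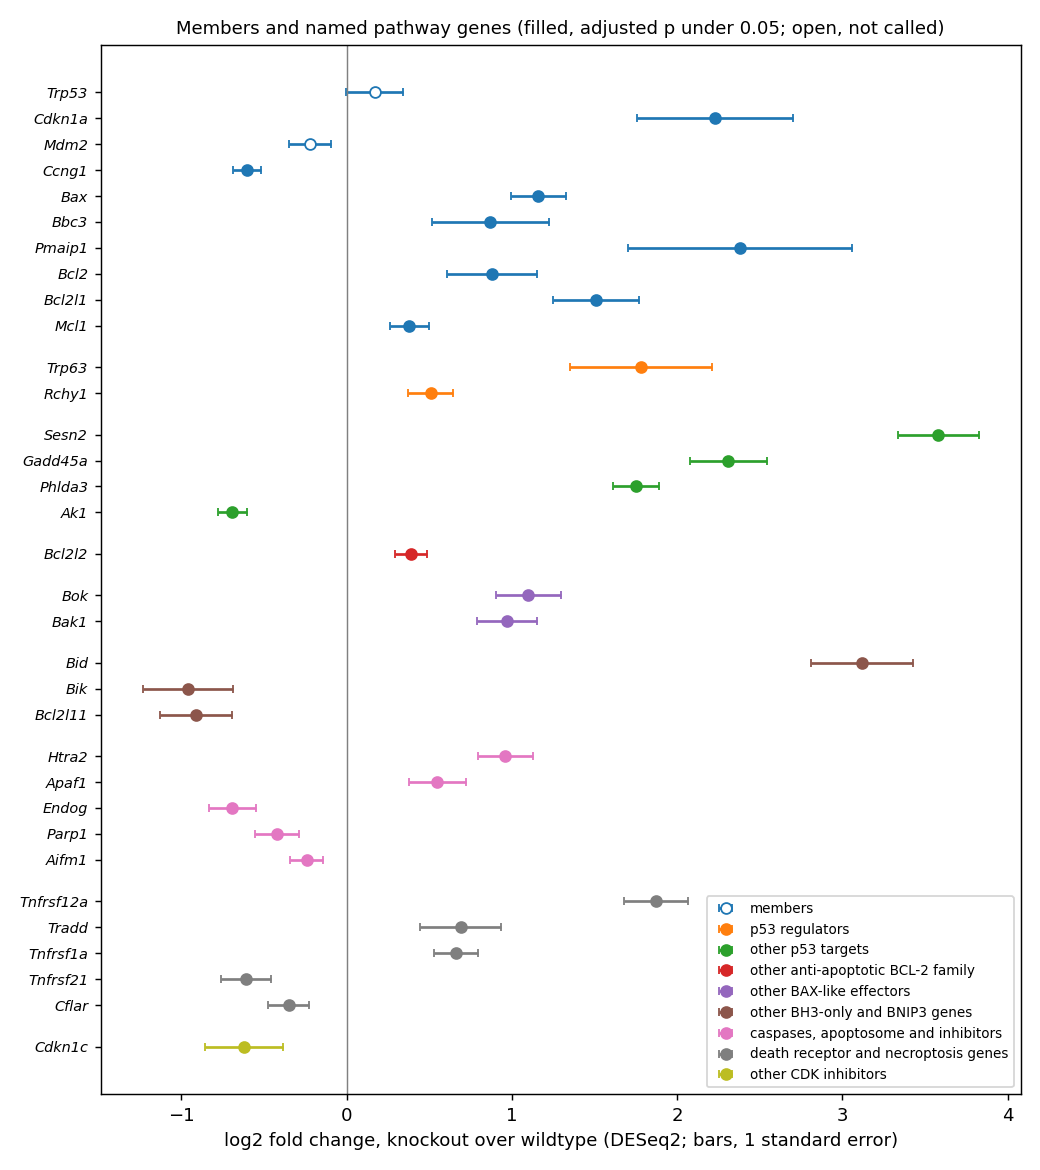
Log2 fold change, knockout over wildtype (horizontal axis, DESeq2, bars 1 standard error), of the 10 members and of the named genes of 8 pathway lists; filled symbols passed an adjusted p of 0.05 and open symbols did not. Sesn2 (3.58), Bid (3.12), Pmaip1 (2.38), Gadd45a (2.31) and Cdkn1a (2.23) lie farthest to the right, and Bik (-0.96) and Bcl2l11 (-0.91) farthest to the left.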

How the data were processed

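Total RNA depleted of cytoplasmic rRNA was sequenced by the authors from 4 wildtype and 4 knockout hearts. The deposited expected counts per gene were estimated by the authors with RSEM 1.2.31 and Bowtie2, per the processing notes, against GENCODE M13 transcripts and mitochondrial records extended by 50 adenines, counting by strand. The deposited files also hold effective lengths and TPM values, which the authors' tool scales to transcript length and depth; TPM served only to recompute the Bax ratios. A deposited table of normalised values with 8 columns that could not be tied to samples, and the authors' table of log2 fold changes and p-values, were not used.

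Expected counts were rounded and tested with DESeq2 1.42.0 in R 4.3.3 (Wald test, unshrunken log2 fold changes, genotype as the only term, effective lengths as offset, Benjamini-Hochberg adjustment over all genes, threshold 0.05). An effective length of 0 was set to 1. Normalised counts are divided by size factor and length factor; per kilobase they are further divided by the mean effective length. Intervals use 95% exact limits. Symbols came from GENCODE M21, matching 50339 of 50563 Ensembl identifiers. Scripts were tested on counts simulated from the wildtype means and spread, with 200 genes changed 2-fold. DESeq2 recovered 89% of these, and 8.72% of its calls at the threshold of 0.05 were unchanged genes. For edgeR the shares were 88.5% and 8.29%. Replicates are separate animals and differed beyond sampling noise (chi-square per gene 4.652 to 52.93).

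The members, 8 pathway lists (100 genes) and 10 marker lists were chosen with earlier results of these data known. Named were the members, Lrpprc, up to 3 largest rises and 3 largest falls per list among called genes that averaged 20 normalised counts or more, and the 5 genes most like Cdkn1a among those that averaged 100 or more; 1 gene that met this rule is not reported here. Alternatives were edgeR 4.0.16 with the quasi-likelihood test, no length offset, a filter of at least 10 counts in 4 libraries, 3 other scalings, the replicate number as a block, and leaving out each library.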

Additional observations from a re-analysis of the deposited data

Results flagged for a closer look

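In 4 of 70 groups of 4 libraries examined, 1 library lay far from the other 3 by Dixon's criterion, where chance alone gives about 1 in 20, or 3.5. Lrpprc was lower in knockout replicate 2 (504.3 normalised counts) than in the other knockout libraries (597.4 to 605.4). Bbc3 was higher in wildtype replicate 2 (40.94) than in the other wildtype libraries (19.16 to 22.80) and the log2 fold change of Bbc3 without it was 1.17 (adjusted p = 0.00648, DESeq2). Bcl2l11 was higher in wildtype replicate 1 (373.3) than in the others (215.0 to 238.3). Apaf1 was higher in knockout replicate 2 (476.0) than in the others (310.3 to 321.0).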

How the results depend on the processing

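Across all genes, 3628 genes were called higher and 3100 lower; scaling to total counts gave 1924 and 5912, and total counts without mitochondrial rRNA gave 7950 and 1111. Among the members, total counts gave 4 higher and 2 lower (Ccng1 and Mdm2) in place of 7 and 1, and total counts without mitochondrial rRNA gave 8 and 1, with Trp53 added at 0.61. Total counts without mitochondrial rRNA called 60 genes of the pathway lists in place of 39, among them 10 p53 regulators in place of 2 and 5 BH3-only and BNIP3 genes in place of 3, and left 1 CDK inhibitor in place of 2. Total counts called 5 p53 regulators, 1 other anti-apoptotic gene in place of 2 and 4 CDK inhibitors. No length offset called 4 p53 regulators, and edgeR and the low-count filter each called 1 CDK inhibitor. Signs turned for Trp53 with total counts (-0.11) and, with total counts without mitochondrial rRNA, for Mdm2 (0.21), Parp1 (0.01), Aifm1 (0.18) and Cflar (0.08). Calls of Bbc3, Bcl2, Mcl1, Rchy1, Bcl2l2, Apaf1, Tradd and Tnfrsf1a were lost with total counts, and those of Bik, Endog, Tnfrsf21 and Cdkn1c with total counts without mitochondrial rRNA. Both scalings move all genes together by construction.

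With 1 library left out at a time, 5549 to 7022 genes, 7 to 8 members (6 to 7 higher, 1 to 2 lower) and 34 to 45 pathway genes were called; the second lower member was Mdm2, without knockout replicate 1. The calls ranged from 3 to 6 BH3-only and BNIP3 genes (6 without knockout replicate 1), 3 to 7 death receptor genes (3 without wildtype replicate 4) and 1 to 2 CDK inhibitors (1 without wildtype replicate 1, 2 or 3 or knockout replicate 1 or 2). Calls of Bbc3, Aifm1, Tradd, Cflar and Cdkn1c were each lost without some library.

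Deviations from the group means correlated at -0.052 to 0.086 between same-numbered libraries and at -0.075 to 0.111 between differently numbered ones. These correlations over many genes give no sign of pairing by number, but they cannot exclude a pairing that acts on some genes. Cdkn1a had the same order of replicates in both groups. With the replicate number as a block its log2 fold change was 2.37 (adjusted p = 6.84e-32, DESeq2). The fit with the replicate number as a block called 5525 genes and 7 members, and the calls of Bbc3 (adjusted p = 0.141), Aifm1 (0.148) and Tradd (0.0842) did not pass in it. Counts of 1 to 18 per library limit Pmaip1.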
